A study of Homo sapiens with 4 samples.

Results

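The array used here carried probe sets for 7 alternative versions of the major histocompatibility complex (MHC), separate from its probe sets for the standard chromosome 6. The members described here were all transcript clusters whose identifier begins with TC6_ and holds the string hap, whatever their signal. They numbered 1430 of the 67539 transcript clusters on the array. Identifiers with the same values on all 4 arrays were taken as 1 measurement, which left 893 distinct measurements. Of these, 640 reached the signal needed for testing and 253 did not.

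The arrays compared neutrophil-like HL-60 cells given a mimic of hsa-miR-182-5p with the same cells given a scrambled control, 2 arrays each. HL-60 is a human promyelocytic leukaemia line, and the cells of both groups had been differentiated with 1.3% DMSO and were collected 24 hours after transfection. Values are log2 signals as normalized by the submitters, so a difference of 1 is a doubling of signal. The labels do not state separate cultures for the samples of each group, so the p-values reflect only how these 4 samples spread, and that spread may be technical.

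The MHC is the gene-dense stretch of chromosome 6 that holds the classical HLA genes. Its class I side encodes proteins that show peptides from inside the cell to cytotoxic T cells, its class II side encodes proteins that show peptides from outside the cell to helper T cells, and the class III stretch between them encodes complement factors, cytokines of the tumour necrosis factor family and heat shock proteins. The stretch differs so much between people that the human reference assembly carries alternative sequences of it, named after the cell lines APD, COX, DBB, MANN, MCF, QBL and SSTO that supplied them. A microRNA lowers the level or translation of messenger RNAs that pair with its seed.

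The mature sequence of the transfected microRNA is shown because the seed is the part that selects its targets. It is encoded at chr7:129770447-129770470 on the minus strand of GRCh38.p14, outside the MHC, and RefSeq gives it as follows, 5′ to 3′ with bases 2 to 8, the seed, in capitals.
hsa-miR-182-5p: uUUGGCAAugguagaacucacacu
The primary transcript of this microRNA (MIR182) had log2 signals of 4.61 and 4.69 in mimic arrays and 4.60 and 4.45 in control arrays, all under the signal filter of 5.56. The mimic is a mature RNA, so this probe set does not measure it.

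Of 9 neutrophil and promyelocyte marker genes, 8 lay above the filter, and CXCR2, a chemokine receptor of mature neutrophils, lay below it. Their mean log2 signal was 6.33 and 6.34 in mimic arrays and 6.29 and 6.36 in control arrays. Myeloperoxidase (MPO) had 6.73 and 6.81 in mimic arrays and 6.71 and 6.75 in control arrays. Of 3 lymphocyte markers, CD79A was above the filter while CD3E and MS4A1 were below it, and of 2 monocyte markers CSF1R was above and CD14 below. These are RNAs of whole cultures, so fewer cells of a type and less RNA per cell cannot be told apart.

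Gene symbols could be given to most members. One symbol was paired with 631 of the 893 measurements, several symbols with 105 and none with 157. The named measurements covered 181 genes, of which 142 had at least 1 measurement above the filter. Most measurements (630) belonged to a single haplotype and 263 were shared, among them 142 present in 2 haplotypes and 5 present in all 7. A further overlap existed with the standard chromosome 6, since 79 of the 893 measurements also carried a standard identifier.

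No haplotype measurement passed the test of mimic against control. With limma and Benjamini-Hochberg adjustment over all 33778 transcript clusters tested, 0 of 640 had an adjusted p under 0.05, and the share over all tested measurements was 0.0%. The smallest adjusted p among the members was 0.168. Differences with an unadjusted p under 0.05 are called nominal here. By that measure 22 members (3.44%) were lower in mimic arrays, against 6.43% of all tested measurements, and 3 (0.469%) were higher, against 0.917%. In 135 members (21.1%) both mimic values were under both control values, against 21.8% of all tested measurements. The opposite order was seen for 29 (4.53%), against 10.2%. These counts depended on the scaling, among the members and over all tested measurements alike. Quantile normalization gave 14 nominally lower and 9 higher members (2.19% and 1.41%), against 3.81% and 2.54% of all tested measurements. Equal array medians gave 13 and 8 (2.03% and 1.25%), against 3.92% and 2.84%. Both mimic values were under both control values in 53 of 640 members with quantile normalization, against 12.3% of all tested measurements. With equal array medians this held for 42 of 640, against 10.1%. The opposite order was then seen in 110 and 115 of the 640 members, against 25.2% and 27.9%. Orders of arrays given below are those of the deposited scaling, to be read against its shares of 21.8% under and 10.2% over. For a named gene the nearer shares are those of all tested measurements with 1 symbol, 14.02% under and 11.86% over. No member without overlap differed by 1.5-fold or more, lower or higher, against 0.157% of all tested measurements that were lower by that much and 0.0% that were higher. The largest difference between the groups among the tested members was 1.27-fold. With control 2 left out, 13 members (2.03%) passed the adjusted threshold, against 5.32% of all tested measurements. With control 1 left out, 2 members (0.313%) passed, against 1.19%. Of the 253 members under the signal filter, 96 had both mimic values under both control values, against 34.1% of all measurements under the filter, and 17 had the opposite order, against 6.13%.

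The differences of the members were close to 0. The difference was under 0.1 on the log2 scale for 587 of 640 (91.7%), against 75.6% of the standard chromosome 6 measurements and 81.2% of all tested ones. The median absolute difference of the members was 0.030, with a median standard error of 0.059 for a single measurement. For measurements with 1 symbol it was 0.030 in the members, 0.030 on the standard chromosome 6 and 0.028 among all tested. For those with no symbol it was 0.070, 0.073 and 0.062 in the same order. Within a group, mimic 1 and mimic 2 differed by a median of 0.067, and the 2 control arrays by 0.055. The median log2 signal of the tested members was 6.84 and 6.83 in mimic arrays and 6.81 and 6.92 in control arrays, so the groups overlapped, with control 2 highest and control 1 lowest. The median difference was -0.017 with the deposited scaling and turned to 0.016 under quantile normalization and 0.027 once array medians were made equal. The sign of the median therefore depended on the scaling.

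**Figure D1:**
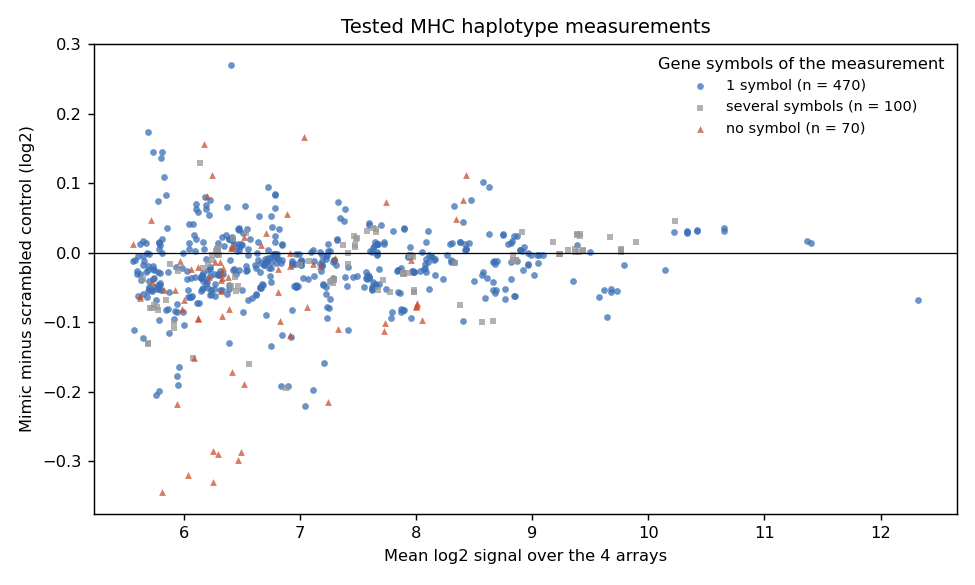
Mimic minus scrambled control (log2, y axis) against mean log2 signal over the 4 arrays (x axis) for the 640 tested haplotype measurements, marked by the number of gene symbols. The points lie around 0 over the whole signal range, and the measurements with no symbol spread further, with a median absolute difference of 0.070, against 0.030 for those with 1 symbol.

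The standard chromosome 6 gave 1679 tested measurements that carried no haplotype identifier. Of these, 153 (9.11%) were nominally lower and 7 (0.417%) nominally higher in mimic arrays. With the standard measurements weighted to the signal of the members, 9.15% were lower. In the brightest of 4 equal bins of the members, from 7.90 to 12.3 on the log2 scale, 0 of 160 haplotype measurements were lower, while 36 of 401 standard ones were. In the dimmest bin, from 5.56 to 6.22, 9 of 160 haplotype measurements and 48 of 510 standard ones were lower. The order of the arrays gave another picture there. Both mimic values were under both control values in 41.9% of haplotype measurements of that bin, against 30.4% of standard ones. In the brightest bin this held for 3.75%, against 22.9%. The bins between gave 24.4% and 14.4%, against 28.4% and 26.2%. At matched signal the standard median difference was -0.026, which also changed sign, to 0.0083 under quantile normalization and 0.019 once array medians were made equal.

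The 2 sets differed in how many of their measurements name a gene, and are therefore also given by kind. Among measurements with 1 symbol, 9 of 470 haplotype members (1.91%) were lower in mimic arrays, against 12 of 688 on the standard chromosome 6 (1.74%) and 264 of 15769 among all tested (1.67%). Among those with no symbol, the shares were 10 of 70 (14.3%) on haplotypes, against 141 of 926 (15.2%) on the standard chromosome 6 and 1780 of 15655 (11.4%) among all tested. Measurements with several symbols gave 3 of 100 on haplotypes, 0 of 65 on the standard chromosome 6 and 48 of 1086 (4.42%) among all tested. The order of the arrays also differed by kind. With 1 symbol, both mimic values were under both control values in 88 of 470 members, 110 of 688 standard measurements and 2211 of 15769 tested. The opposite order was seen in 25, 81 and 1870 of these. With no symbol, 20 of 70, 330 of 926 and 4638 of 15655 were under, and 3, 63 and 1348 were over. Unnamed measurements made up 70 of 640 members, while on the standard chromosome 6 they made up 926 of 1679. This split was chosen after the values were seen, and whether naming accounts for the difference between the sets was not tested.

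**Figure D2:**
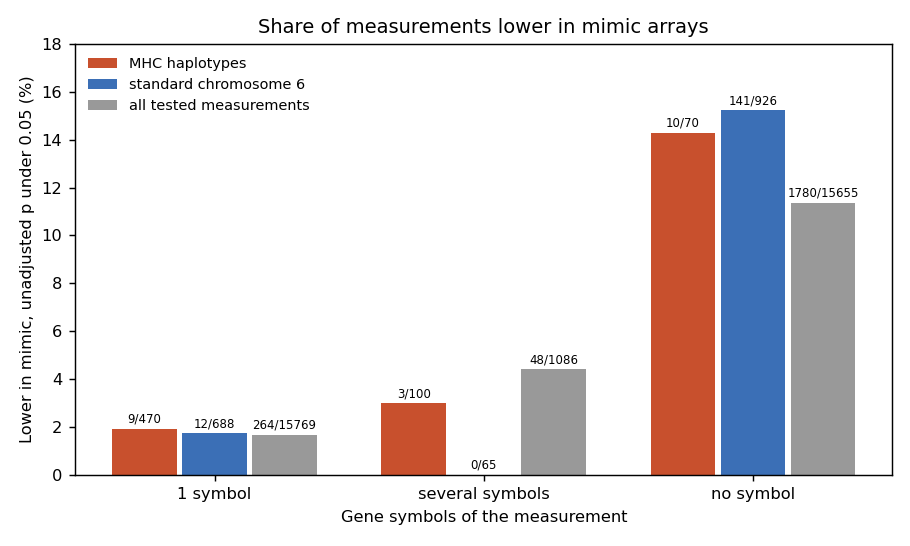
Percentage of tested measurements lower in mimic arrays at an unadjusted p under 0.05 (y axis), by the number of gene symbols (x axis), for MHC haplotypes, the standard chromosome 6 and all tested measurements, with the counts above each bar. Within the 1-symbol and no-symbol classes the 3 bars are of like height, and the no-symbol bars are the tallest, from 11.4% to 15.2%.

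The 7 haplotypes gave like values. They share measurements and are not replicates of each other. APD had the fewest identifiers (123) and COX the most (243). Their median differences ran from -0.025 (APD) to -0.014 (MCF and QBL). Between 3 (APD) and 7 (COX, DBB, MANN and QBL) of their tested measurements were nominally lower, and 0 or 1 was higher. APD also had the fewest tested measurements, 76, and COX the most, 169. As shares of those tested, 2.58% (MCF) to 5.00% (MANN) were lower, against 6.43% of all tested measurements. The share of nominally higher ones over all tested measurements was 0.917%.

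Class I genes were all above the signal filter, with 31 measurements of 7 genes. Among them 0 passed the adjusted test, and 0 had an unadjusted p under 0.05. The differences ran from -0.07 (MICA) to 0.03 (HLA-E), and the 95% confidence intervals of the 31 measurements stayed within -0.21 and 0.19. HLA-E, a ligand that inhibits natural killer cells, had 8.16 and 8.02 in mimic arrays and 8.06 and 8.09 in control arrays on COX, DBB, QBL and SSTO (difference 0.02, adjusted p = 1.00). HLA-B, a classical class I heavy chain, had 6.83 and 6.83 in mimic arrays and 6.80 and 6.88 in control arrays on COX. The mimic values of both genes lay among or around the control values. The median of the list was -0.014, against -0.014 over all tested measurements, and it became 0.019 under quantile normalization and 0.031 once array medians were made equal.

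MICA and MICB encode stress-induced ligands of the activating receptor NKG2D on natural killer cells. MICB had 8.70 and 8.62 in mimic arrays and 8.64 and 8.70 in control arrays on APD, and its 7 measurements differed by -0.04 to -0.01. MICA had 7.24 and 7.14 in mimic arrays and 7.24 and 7.26 in control arrays on COX and SSTO, with both mimic arrays below the controls in 2 of its 3 measurements. The smallest unadjusted p of the class I list was 0.300, for a MICA measurement. HLA genes are similar to each other in sequence, and how far a probe set responds to a related gene was not tested.

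Genes of peptide loading for class I were also near 0. TAP1 and TAP2 form the pump that carries peptides into the endoplasmic reticulum, TAPBP (tapasin) bridges it to class I molecules, and PSMB8 and PSMB9 are subunits of the immunoproteasome. All 22 of their measurements were tested, 0 passed the adjusted test, 0 had an unadjusted p under 0.05, and the differences ran from -0.06 to -0.01. TAP1 had 6.21 and 6.19 in mimic arrays and 6.25 and 6.27 in control arrays on APD, DBB and MCF (difference -0.06, SE 0.053, adjusted p = 1.00). Both mimic values were under both control values in all 4 TAP1 and in 4 of 5 PSMB9 measurements, and in none of TAP2, TAPBP or PSMB8. All 22 differences were below 0 as deposited, but only 11 under quantile normalization and 4 once array medians were made equal.

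Class II genes were dim. Of 46 measurements of 11 genes, 22 of 6 genes passed the filter, and every measurement of HLA-DRA, HLA-DQA1, HLA-DMA, HLA-DMB and HLA-DOB fell under it. HLA-DRA, the shared alpha chain of HLA-DR, had 4.57 and 4.62 in mimic arrays and 4.62 and 4.69 in control arrays on MCF, QBL and SSTO. Among the tested ones 0 passed the adjusted test and 0 had an unadjusted p under 0.05. HLA-DPA1, a class II alpha chain, had 5.76 and 5.75 in mimic arrays and 5.80 and 5.80 in control arrays on APD and MCF. HLA-DPA1 and HLA-DPB1 had both mimic values under both control values in all 10 measurements, with differences from -0.07 to -0.05. HLA-DRB4, a second DR beta chain carried by some haplotypes, had 5.78 and 5.97 in mimic arrays and 5.77 and 5.71 in control arrays on MANN (difference 0.14, SE 0.074, adjusted p = 0.772). The list median was -0.021 as deposited, 0.022 under quantile normalization and 0.023 once array medians were made equal.

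**Figure D3:**
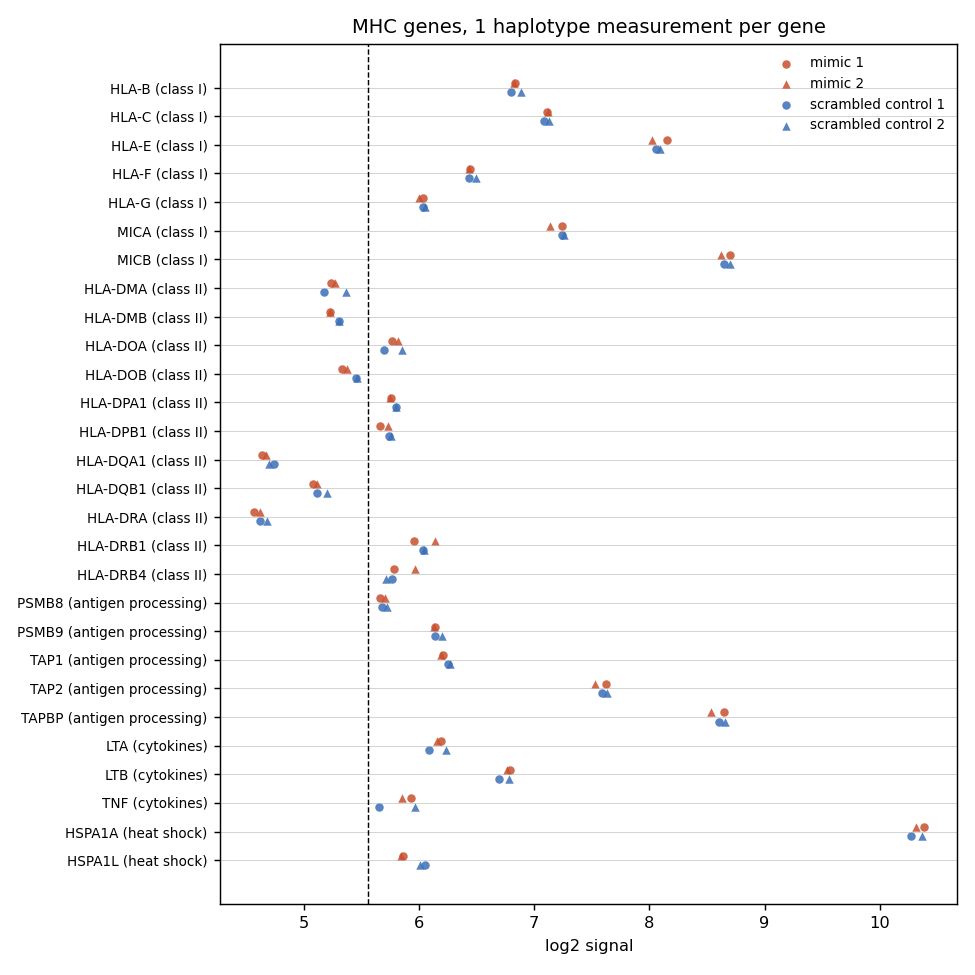
Log2 signal (x axis) on mimic arrays (red, upper row of each gene) and scrambled control arrays (blue, lower row) for the class I, class II, antigen processing, cytokine and heat shock genes, 1 haplotype measurement per gene, the one present in most haplotypes. The dashed line is the signal filter of 5.56, under which several class II genes lie; the HSPA1L mimic values, 5.86 and 5.84, lie below its control values, 6.05 and 6.01.

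The heat shock list held both a bright gene near 0 and the gene with the smallest p of all lists. HSPA1A encodes the inducible Hsp70 chaperone, and HSPA1L a close relative known mainly from testis. On APD, HSPA1L had 5.86 and 5.85 in mimic arrays and 6.08 and 6.01 in control arrays (difference -0.19, SE 0.056, unadjusted p = 0.0123, adjusted p = 0.363). The measurement shared by COX and QBL differed by -0.18 (unadjusted p = 0.0141) and that of DBB by -0.16 (unadjusted p = 0.0218). In all 3 measurements both mimic values were under both control values, and none passed the adjusted test. The differences kept their sign under both other scalings, at -0.15 to -0.12 with quantile normalization and also with equal array medians. On APD the unadjusted p was 0.0553 without mimic 2 and 0.0975 without control 1, both over the nominal threshold of 0.05. A standard chromosome 6 probe set for HSPA1L had 6.33 and 6.22 in mimic arrays and 6.29 and 6.34 in control arrays (difference -0.04, SE 0.060), where the groups overlapped. On APD, HSPA1A had 10.38 and 10.32 in mimic arrays and 10.27 and 10.36 in control arrays, with differences of 0.03 in all 4 of its measurements. HSPA1A has a near-identical neighbour, HSPA1B, and signal from the 2 genes cannot be told apart here.

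Cytokine and complement genes of class III did not pass the test either. TNF, the founding member of its cytokine family, had 5.93 and 5.85 in mimic arrays and 5.65 and 5.97 in control arrays on 6 haplotypes. Control 1 was lowest and control 2 highest of the 4, so the spread of the control arrays enclosed both mimic values (difference 0.08, SE 0.102, adjusted p = 1.00). With control 2 left out, the APD measurement of TNF passed the adjusted test (difference 0.27, adjusted p = 0.0455). The lymphotoxin genes LTA and LTB, which encode related cytokines, differed by at most 0.05. The 7 cytokine measurements had 0 adjusted calls and 0 with an unadjusted p under 0.05. The second component of complement (C2) had 6.00 and 6.05 in mimic arrays and 6.08 and 6.10 in control arrays on COX, DBB and QBL (difference -0.06, SE 0.054). All 4 of its measurements had both mimic values under both control values, and 0 of the 5 tested complement measurements passed the adjusted test or an unadjusted p under 0.05.

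The 32 other genes looked up, from class III and the stretches beside it, gave 106 tested measurements of 27 genes. None passed the adjusted test. The median was -0.008 as deposited, 0.020 under quantile normalization and 0.037 once array medians were made equal. Of the 106, 2 were nominally lower and 0 nominally higher, against 1.67% and 0.533% of all tested measurements with 1 symbol. Both lower ones were of WHR1 (formerly STK19), a winged-helix protein of DNA repair. On SSTO, WHR1 had 6.96 and 7.07 in mimic arrays and 7.26 and 7.17 in control arrays (difference -0.20, SE 0.065, unadjusted p = 0.0188, adjusted p = 0.411). On DBB and MCF the difference was -0.16 (unadjusted p = 0.0434). The other 4 WHR1 measurements differed by -0.05 to -0.04, and all 6 had both mimic values under both control values.

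Some of the brighter genes of the stretch are given here, to be read against the median absolute difference of 0.030 over the tested members. TUBB, a beta-tubulin, had 11.37 and 11.38 in mimic arrays and 11.35 and 11.37 in control arrays on 6 haplotypes, with a difference of 0.02. CLIC1, a chloride intracellular channel protein, differed by 0.03 or 0.04 in its 4 measurements, with both mimic values over both control values in each. BRD2, a reader of acetylated histones, differed by less than 0.01 in all 6 tested measurements. VARS1, the valyl-tRNA synthetase, differed by less than 0.01 in all 5. FLOT1, the membrane raft protein flotillin, had differences of -0.09 to -0.06 in 5 measurements whose groups overlapped. IER3, an immediate early response gene, stood at -0.09 and -0.08 with no overlap, also without passing the test. Its mean signal was 7.79 in both measurements. The brightest member, a MANN measurement of the choline transporter gene SLC44A4, had 12.28 and 12.30 in mimic arrays and 12.35 and 12.37 in control arrays (difference -0.07). The 6 measurements of SLC44A4 had mean signals from 6.93 to 12.3, and the one on APD and SSTO stood at 7.01. The brightness of the MANN measurement is therefore not a level of the gene on all haplotypes.

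The 7 measurements with the lowest p-values had no symbol, and 3 of them are described here. TC6_cox_hap2000101.hg.1, present in 5 haplotypes, had 5.91 and 5.83 in mimic arrays and 6.20 and 6.18 in control arrays (difference -0.32, SE 0.058, unadjusted p = 0.000928, adjusted p = 0.168). TC6_apd_hap1000028.hg.1, present in 6 haplotypes, had 6.29 and 6.34 in mimic arrays and 6.68 and 6.55 in control arrays (difference -0.30, SE 0.064, unadjusted p = 0.00245, adjusted p = 0.234). A standard identifier with the same 4 values is annotated as MDC1-AS1, an antisense transcript. TC6_cox_hap2000056.hg.1, named after its values were seen, was present in 6 haplotypes and had the largest fold difference of the tested members. It had 5.72 and 5.57 in mimic arrays and 5.92 and 6.06 in control arrays (difference -0.34, unadjusted p = 0.00300, adjusted p = 0.240), and it passed the adjusted test without control 1 (adjusted p = 0.00115) and without control 2 (adjusted p = 0.0479). The groups did not overlap in any of these 3. Without control 2 the first 2 also passed the adjusted test, with adjusted p of 0.00716 for TC6_cox_hap2000101.hg.1 and 0.00241 for TC6_apd_hap1000028.hg.1. The number of arrays limits the precision: an exact two-sided permutation test of 2 against 2 cannot give a p below 0.333.

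Of the 22 nominally lower members, 10 had no symbol, 3 had several and 9 named 5 genes. Beside HSPA1L and WHR1 these were C6orf47, HCG4 and HCG20, which are named here after their values were seen. C6orf47 had 6.87 and 6.74 in mimic arrays and 7.00 and 6.99 in control arrays on MANN (difference -0.19, unadjusted p = 0.0193, adjusted p = 0.414), and 2 of its 4 measurements were nominally lower. HCG4 and HCG20, non-coding genes of the HLA complex group, differed by -0.20 each, on APD, COX and QBL for HCG4 and on SSTO for HCG20. Fold differences among the 22 ran from 1.11 to 1.27, and their mean signals lay between 5.76 and 7.24.

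The 3 nominally higher members were each from 1 haplotype. HLA-DPB2, a class II pseudogene, had 5.75 and 5.80 in mimic arrays and 5.54 and 5.66 in control arrays on MCF (difference 0.17, SE 0.064, unadjusted p = 0.0303, adjusted p = 0.479). Its measurements on other haplotypes were under the filter. UBD, the ubiquitin-like modifier FAT10, had 5.86 and 5.92 in mimic arrays and 5.73 and 5.76 in control arrays on COX (difference 0.15, SE 0.055, unadjusted p = 0.0349, adjusted p = 0.513). The UBD measurement shared by APD, MANN and QBL differed by 0.01, with overlapping groups. HCG27, a non-coding gene named after its values were seen, had 6.59 and 6.49 in mimic arrays and 6.10 and 6.44 in control arrays on MANN (difference 0.27, unadjusted p = 0.0437, adjusted p = 0.557). Without control 2, that HCG27 measurement passed the adjusted test (difference 0.44, adjusted p = 7.5e-05). A second HCG27 measurement on MANN had 6.80 and 7.07 in mimic arrays and 6.99 and 7.32 in control arrays (difference -0.22, adjusted p = 0.803), and it passed the adjusted test without control 1 (difference -0.39, adjusted p = 0.00377).

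**Figure D4:**
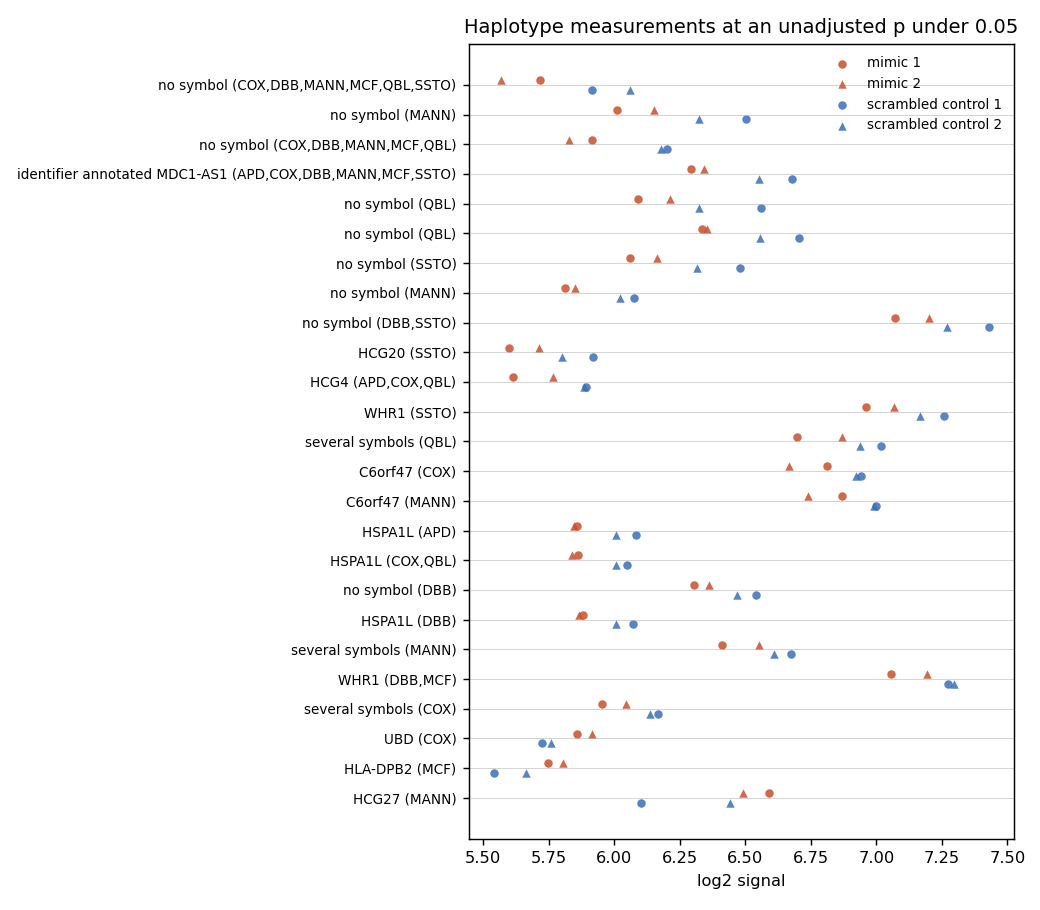
Log2 signal (x axis) on mimic arrays (red, upper row) and scrambled control arrays (blue, lower row) for the 25 haplotype measurements with an unadjusted p under 0.05, ordered by difference. In the 22 upper rows both mimic values lie left of both control values, and in the 3 lowest rows, UBD, HLA-DPB2 and HCG27, they lie right of them; 0 of the 25 passed the adjusted threshold.

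Measurements of 1 gene mostly gave like differences, and HCG27 had the widest range. Of 115 genes with at least 2 tested measurements, 97 had all differences of 1 sign, and the median range within a gene was 0.014. The range was at most 0.1 for 109 genes. It was largest for HCG27, at 0.490, and next largest for DAXX, at 0.154. HCG27 also had 2 standard chromosome 6 identifiers, and whether its measurements cover the same transcript was not tested. For 86 genes a single standard chromosome 6 measurement was also tested, and its sign was the same as that of the haplotype median for 79, with a median gap of 0.0063. These measurements share the 4 RNA samples, so their likeness is a description of the probe sets and not a repeat of the experiment.

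The 3 stretches of the MHC had like medians. On the class I side, 62 genes gave 225 tested measurements, of which 2 were nominally lower and 2 higher. In class III, 46 genes gave 139 measurements, 7 lower and 0 higher. On the class II side, 33 genes gave 104 measurements, 0 lower and 1 higher. Over all tested measurements with 1 symbol, 1.67% were nominally lower and 0.533% higher. The 3 median differences were -0.017, -0.017 and -0.018. The 7 lower measurements of class III belonged to C6orf47, HSPA1L and WHR1, and a difference in share between the sides was not tested.

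**Figure D5:**
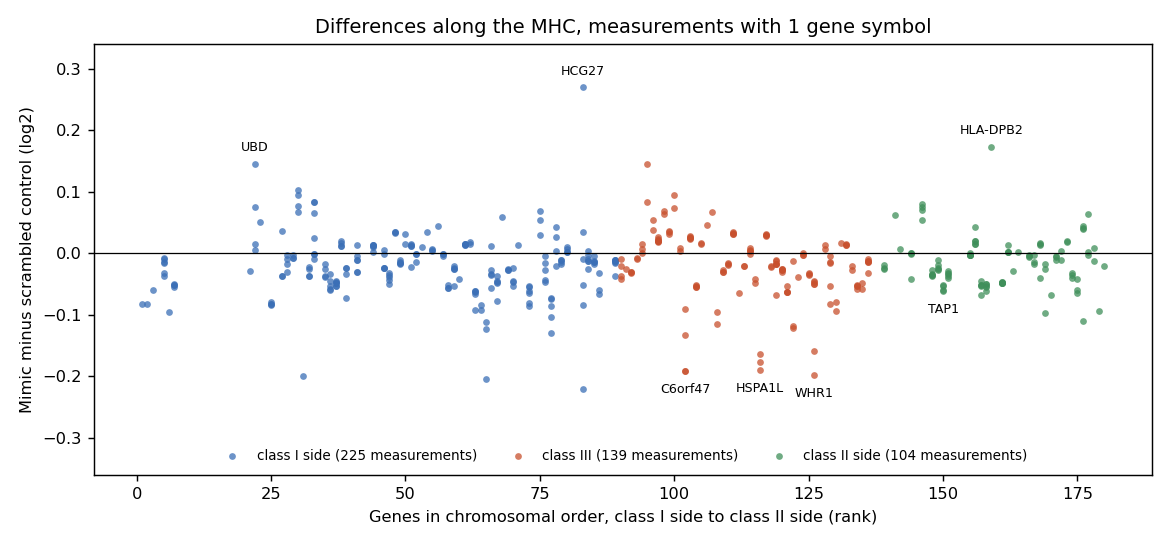
Mimic minus scrambled control (log2, y axis) for the tested haplotype measurements with 1 gene symbol, with genes in chromosomal order (rank, x axis) and coloured by side of the MHC. The 3 sides centre on the same level (medians -0.017, -0.017 and -0.018), and HCG27 holds both the highest point (0.27) and the lowest (-0.22).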

How the data were processed

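The comparison was of 2 mimic arrays with 2 scrambled control arrays of neutrophil-like HL-60 cells. The authors deposited log2 signals for each probe set, made with RMA and Partek per the submitters' processing notes and with Expression Console at gene level per the labels. The genome build of the array is not given in the sources used here. Scanner files were not used.

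Testing covered 33778 of the 67539 transcript clusters, those whose mean over all arrays reached the overall median of 5.56 (log2). Mimic was set against control in limma 3.58.1 under R 4.3.3 (lmFit, eBayes, no covariate), with Benjamini-Hochberg adjustment over all of them, with 2 residual and 4.85 prior degrees of freedom. The fit was tested on simulated data. Shares count each distinct measurement once (32510 tested).

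Gene symbols came from the platform annotation, updated through RefSeq (GRCh38.p14), and probe sets with several symbols were not named. Gene order came from the same RefSeq table. The rule for named measurements took the 2 lower and 2 higher with the smallest p and the genes of 7 lists of MHC genes. Members and lists were chosen with earlier results of these data known, and the splits by annotation and MHC side after the values were seen.

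Alternatives were another filter, scaling, prior, table or member set, a replicate block and leaving out each array. The numbers of the labels did not pair the samples (correlation of deviations -0.129).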

Additional observations from a re-analysis of the deposited data

How the results depend on the processing

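The count of members past the adjusted threshold was 0 under every alternative that kept all 4 arrays, while over all measurements 140 passed with the crossed replicate block, 22 with the 75th percentile filter, 9 with the trend and robust prior, 6 with equal array medians and 0 with the others. It was 0 to 13 when 1 array was left out: 2 without scrambled control 1, where 387 of all measurements (1.19%) passed, and 13 without scrambled control 2, where 1729 (5.32%) passed. A group left with 1 array was taken to vary like the other group. The 13 then held TC6_cox_hap2000101.hg.1 (adjusted p = 0.00716), TC6_apd_hap1000028.hg.1 (adjusted p = 0.00241) and 1 of the 200 measurements of the gene lists. With the 75th percentile filter, 6 members were nominally lower (unadjusted p under 0.05) and 1 was higher, 31 lay below and 9 above without overlap, and 4 lower members had 1 symbol and 1 had none. That filter left 332 members. Over all measurements it kept, 5.89% were lower and 1.05% higher, and 17.7% lay below and 12.8% above. Without a filter, 38 of 893 were lower, 231 lay below and 46 above, 23 lower members had 1 symbol, and the matched chromosome 6 median was -0.035. The shares over all measurements were then 7.23% lower, 28.0% below and 8.15% above. After quantile normalization 14 were lower and 9 higher, 53 lay below and 110 above, 5 lower members had 1 symbol, and the matched chromosome 6 median was 0.0083. With equal array medians, which added 0.045 to every difference, 13 were lower and 8 higher, 42 lay below and 115 above, 4 lower members had 1 symbol, and the matched chromosome 6 median was 0.019. Leaving out 1 array gave 11 (without mimic 1) to 28 (without scrambled control 2) lower, 0 to 7 higher, 166 to 382 below, 50 to 178 above, 4 to 11 lower with 1 symbol and 7 to 15 with none. Over all tested measurements, 34.4% to 46.5% then lay below and 19.3% to 32.4% above. With 1 array left out, the haplotype median was -0.045 (without scrambled control 1) to 0.0042 (without scrambled control 2), and the matched chromosome 6 median -0.033 to -0.018. A replicate block gave 20 lower, 2 higher and 0 adjusted calls, and a crossed block, added after seeing the data because the pairing correlation was -0.129, gave 23, 4 and 0. Over all tested measurements, 5.89% were lower with the replicate block and 7.99% with the crossed block. The trend and robust prior, the series value table, identical rows entered once, leaving out members shared with the standard chromosome 6 and deciles of signal gave 20 to 22 lower and 2 or 3 higher members, the 2 being with the trend and robust prior, where 1 had 1 symbol. In these settings 5.93% to 6.73% of all tested measurements were lower. For HSPA1L, the unadjusted p with equal array medians was 0.0464 on APD, 0.0614 on COX and QBL and 0.0890 on DBB. With 2 arrays per group and all arrays kept, no member passed the adjusted threshold in any of these settings.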

Other observations

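The MHC haplotypes also carry a cluster of olfactory receptor genes, which encode odorant receptors of the nose. The 13 genes gave 37 haplotype measurements, all of them under the signal filter and so left out of the test. This list was chosen after the values were seen. The median log2 signal of the 37 was 4.19 and 4.21 in mimic arrays and 4.37 and 4.27 in control arrays. In 22 of them (59.5%) both mimic values were under both control values, in 3 they were above, and 12 overlapped. The 22 held repeated measurements of OR2H1, OR2H2, OR14J1, OR10C1 and OR5V1 from the same 4 samples, so they are not independent. With the list chosen this way, its share is a description only, and it is given for the deposited scaling alone. Among the 216 other haplotype measurements under the filter the share below was 34.3%, and among all 33356 measurements under the filter it was 34.1%, with 6.13% above. The median difference of the 37 was -0.11, against -0.04 for the other haplotype measurements under the filter and -0.05 for all.

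On SSTO, OR14J1 had 4.62 and 4.69 in mimic arrays and 5.33 and 4.97 in control arrays, a difference of -0.50. OR12D3 on APD stood at the other end, with a difference of 0.29. With no filter on signal, 11 of the 37 had an unadjusted p under 0.05 and were lower, against 7.23% of all measurements. By the same measure 1 was higher, against 0.812%, and the smallest adjusted p was 0.388. The 11 held repeated measurements of OR2H2, OR14J1 and OR10C1, taken on different haplotypes from the same 4 samples. The 7.23% and 0.812% are shares over all signal levels, while the 37 had mean log2 signals from 2.49 to 5.02. Whether the olfactory receptor genes were transcribed in the cells was not tested.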
